A study of Mus musculus with 3 samples.

Results

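Chromatin domains near the ends of mouse chromosomes were set against the domains between them, in Hi-C data of embryonic limb buds. The proximal zone of a chromosome lies beside the centromere and the distal zone beside the far telomere. Proximal domains were those lying wholly within 10 Mb of the start of the chromosome's first domain, and distal domains those lying wholly within 10 Mb of the end of its last. The table of 4124 domains on chromosomes 1 to 19 held 322 proximal and 356 distal domains, 678 in all, and left 3446 interior domains. Membership rests on position alone, so no score chose the members.

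The assay, Hi-C, joins pieces of DNA that lie close together in the nucleus and reads out the joined pairs. It was made from limb buds, fore and hind together, of wild-type embryos (E11.5), in 3 libraries of 1 group. The libraries were technical repeats of a single tissue pool that the protocol text counts as 8 embryos and the design text as 10. A cell type label names G4 embryonic stem cells beside the limb bud label, and a domain table has no expression markers against which either could be checked. The deposited values are for all libraries together, so they carry no error between libraries and their depth is unknown.

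A chromatin domain is a stretch of the genome whose parts touch one another more than they touch what lies outside. Domains are commonly explained by cohesin, a ring complex that reels chromatin into loops until it is stopped, most often by the DNA-binding protein CTCF. Where reeling is halted at a single side, contacts form a line along that edge of the domain, an architectural stripe, and the domain is asymmetric. Mouse autosomes carry the centromere close to an end, so their ends differ: the proximal end adjoins satellite repeats and pericentromeric heterochromatin, and the distal end adjoins a telomere far from any centromere. The distal end of chromosome 7 is known for an imprinted gene cluster with Igf2 and Kcnq1, and that of chromosome 12 for the immunoglobulin heavy chain locus.

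Chromosomes were the units of every comparison. Each zone of a chromosome was summarised by a single value, and the differences between zones were tested over 19 chromosomes with a two-sided paired permutation test. Adjusted p-values are Benjamini-Hochberg over 33 tests, made of 11 measures in 3 contrasts, and a comparison is called at an adjusted p under 0.05. These p-values measure the spread between chromosomes in this table, not between embryos or libraries. Of the 33 comparisons, 1 was called and 7 had an unadjusted p under 0.05.

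The called comparison was that of the cosine score, which was lower in proximal than in distal domains. The cosine score is the authors' value per domain, and no source used here says how it was computed. Over the proximal zones the median cosine of a chromosome ran from 0.372 on chromosome 7 over a middle value of 0.575 to 0.739 on chromosome 2. Over the distal zones it ran from 0.494 on chromosome 18 over 0.709 to 0.829 on chromosome 15, so the ranges of the ends overlap. The mean was 0.583 ± 0.101 (SD, n = 19) in proximal and 0.706 ± 0.0782 (SD, n = 19) in distal zones. The difference of -0.123 (SE 0.0291) passed the permutation test (p = 0.0007, adjusted p = 0.0231), and the proximal value was the lower on 16 of 19 chromosomes.

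**Figure D1:**
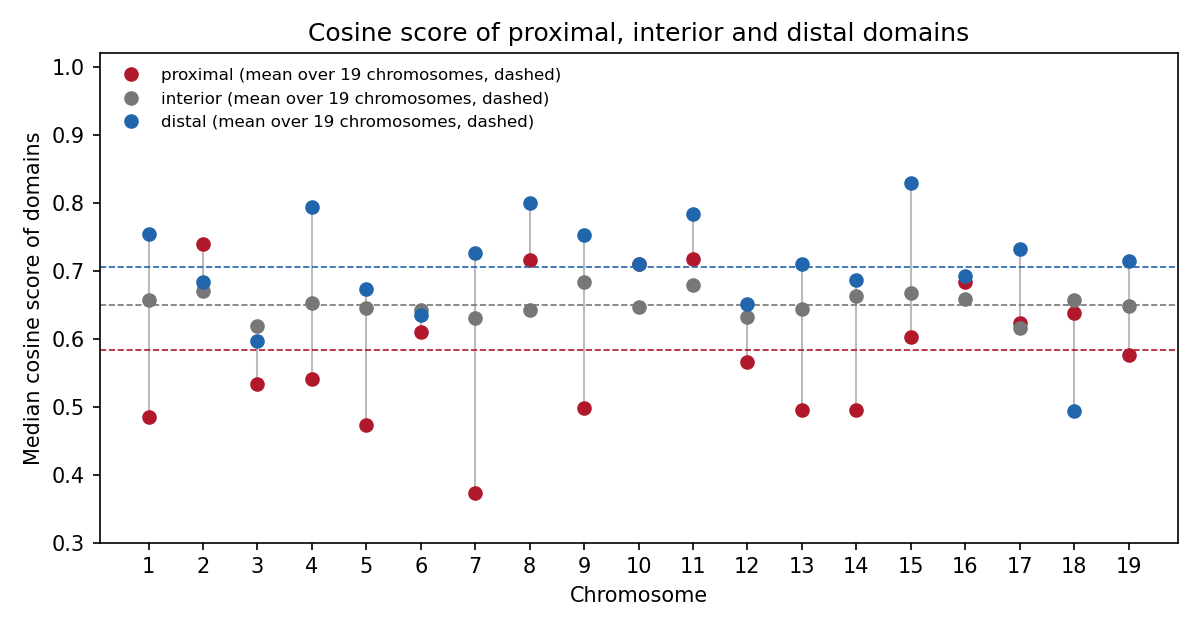
Median cosine score (score, y axis) of the proximal, interior and distal domains of each of 19 chromosomes (x axis), with a grey line joining the ends of a chromosome and dashed lines at the means over chromosomes. The proximal point lies under the distal point on 16 chromosomes, most widely on chromosome 7 (0.372 against 0.726), and above it clearly on chromosomes 2 and 18.

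The gap between the ends was widest on chromosome 7, with a median of 0.372 in its 19 proximal domains and 0.726 in its 20 distal domains. Chromosomes 1, 9 and 4 followed, with proximal minus distal differences of -0.268, -0.254 and -0.254. The 3 chromosomes without a lower proximal value were 10, 2 and 18. On chromosome 10 both ends stood at 0.709. On chromosome 2 the proximal median was 0.739 and the distal 0.683, and on chromosome 18 they were 0.638 and 0.494.

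Interior domains lay between the ends, with a mean of 0.650 ± 0.0182 (SD, n = 19). Neither end was called against them, at -0.0672 (SE 0.0227) for proximal minus interior (permutation test, adjusted p = 0.0903, lower on 13 of 19 chromosomes). For distal minus interior the difference was 0.0560 (SE 0.0172; permutation test, adjusted p = 0.0903, higher on 16 of 19). With zones of 20 Mb both passed, at -0.0818 (permutation test, adjusted p = 0.00429) and 0.0466 (permutation test, adjusted p = 0.0205).

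Along the whole chromosome the cosine score was higher toward the telomere side. Dividing every chromosome into 10 equal parts from the centromere side, the mean of the chromosome medians was 0.575 ± 0.111 (SD, n = 19) in the outermost proximal part. It was 0.627 ± 0.0676 in the fifth part, 0.679 ± 0.0677 in the ninth and 0.706 ± 0.0761 in the outermost distal part. The rise was not steady: the fourth part (0.603 ± 0.103) lay below the third (0.625 ± 0.0648), and the seventh and eighth both stood at 0.650. The outermost parts hold domains of the end zones, so they are not separate from the comparison above. The interior shares no domain with the end zones, though it keeps the 16 domains that cross the limit at each end. Within the interior the median of the centromere side averaged 0.619 ± 0.0430 (SD, n = 19) and that of the telomere side 0.664 ± 0.0386. The difference was -0.0456 (SE 0.0158), and the centromere side was the lower on 14 of 19 chromosomes. This division was made after the end values had been seen, and it is given without a test.

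**Figure D2:**
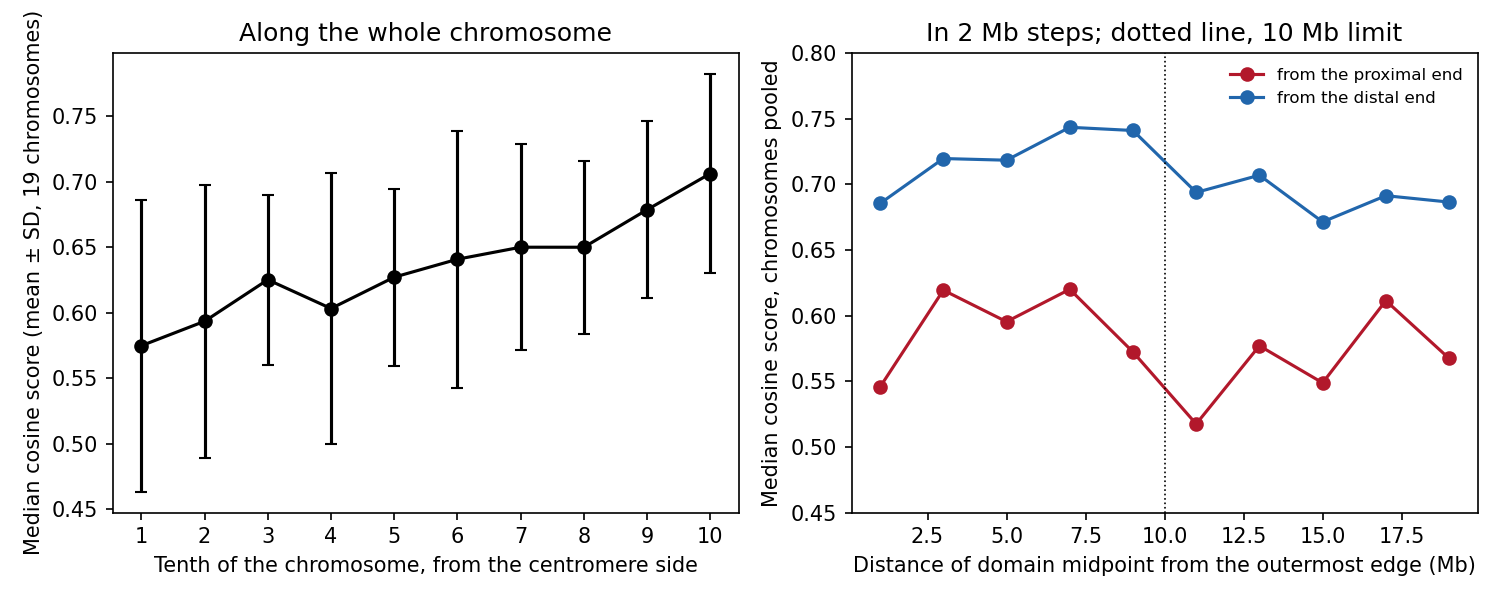
Left, median cosine score (y axis) in each of 10 equal parts of the chromosome from the centromere side (x axis), as mean and SD over 19 chromosomes, from 0.575 to 0.706. Right, median cosine of domains pooled over chromosomes (y axis) against the distance of their midpoints from the outermost domain edge in steps of 2 Mb (x axis, Mb), where the distal line stays above the proximal line on both sides of the 10 Mb limit.

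The scores were also counted by distance from the outermost domain edge. From the proximal end the pooled median was 0.546 in the outermost 2 Mb (79 domains) and stayed between 0.517 and 0.620 up to 20 Mb. From the distal end it was 0.685 in the outermost 2 Mb (70 domains) and stayed between 0.671 and 0.743. Across the limit of 10 Mb the distal median went from 0.741 (8 to 10 Mb) to 0.694 (10 to 12 Mb) and the proximal median from 0.572 to 0.517. No step from the distal side was as low as any step from the proximal side.

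Low scores were more common among proximal domains at the level of single domains too. A cosine under 0.5 was found in 114 of 322 proximal domains (35.4%, 95% Wilson interval 30.4 to 40.8%), in 55 of 356 distal domains (15.4%, 12.1 to 19.6%) and in 858 of 3444 interior domains with a score (24.9%, 23.5 to 26.4%). These intervals treat domains as independent, which neighbours on a chromosome may not be. Among domains without a stripe call the pooled median was 0.626 in 205 proximal and 0.765 in 237 distal domains. Among domains with a stripe call it was 0.535 in 117 proximal and 0.622 in 119 distal domains. In domains of up to 250 kb the medians were 0.485 (66 proximal) and 0.674 (82 distal), and above 500 kb they were 0.617 (99 proximal) and 0.708 (89 distal). The proximal median was thus the lower in each of these 4 subsets.

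Gaps are stretches that the table assigns to no domain, and at the proximal end the score was lower beside them. Proximal domains with a gap on a side had a pooled median of 0.545 (139 domains), against 0.617 (183 domains) without. Distal domains had 0.743 beside a gap (156 domains) and 0.703 without (200 domains), and interior domains had 0.643 and 0.653. These medians are pooled over domains, and their differences were not tested. A cosine of exactly 0 stood in 11 proximal domains on 5 chromosomes, 10 of them beside a gap, and in 4 distal domains on 2 chromosomes, all beside a gap. Without scores of exactly 0 or 1 the difference between the ends was -0.116 (permutation test, adjusted p = 0.0238). Over domains that border no gap it was -0.0999 and was no longer called (permutation test, p = 0.00676, adjusted p = 0.158). That comparison used fewer domains, the 183 proximal and 200 distal ones without a gap.

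The call between the ends was also lost in smaller zones, and lay close to the threshold without some of the chromosomes. With zones of 5 Mb the difference was -0.0938 (permutation test, adjusted p = 0.265), and over class 1 domains alone it was -0.0962 (permutation test, adjusted p = 0.155). Without chromosome 4, 5 or 19 it was -0.116, -0.119 or -0.122, with permutation tests at adjusted p of 0.0515, 0.0515 and 0.0548. Without chromosome 7 the difference was smaller, at -0.110, yet stayed called (permutation test, adjusted p = 0.0475). These losses and this call lie too close to the threshold to single out a chromosome.

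Domains were packed more closely at the distal end in most chromosomes, though not by enough to be called. Distal windows of 10 Mb held between 13 and 23 domains, with a median of 19, and proximal windows between 13 and 22, with a median of 17. Per Mb this came to 1.87 ± 0.273 (SD, n = 19) distally, 1.69 ± 0.261 proximally and 1.69 ± 0.0978 in the interior. Distal minus interior was 0.184 per Mb (SE 0.0665; permutation test, p = 0.0144, adjusted p = 0.0950, higher on 14 of 19 chromosomes). Proximal minus distal was -0.179 (SE 0.0981; permutation test, adjusted p = 0.304), and proximal minus interior 0.00545 (SE 0.0602; permutation test, adjusted p = 0.975).

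An end window loses any domain that crosses its inner limit, whereas the interior keeps it, which lowers the number at both ends. There were 16 such domains at the proximal limit and 16 at the distal, with median lengths of 838 and 638 kb. Distal windows end at a domain end, whereas the interior windows used next, also of 10 Mb, begin at a domain start. Against these, distal minus interior was 0.255 per Mb and was called (permutation test, adjusted p = 0.0214). By domain midpoints it was 0.227 (permutation test, adjusted p = 0.0473).

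The fullest distal window was that of chromosome 13 from 110300001 to 120300000, with 23 domains and 5 in class 1. The emptiest was that of chromosome 12 from 111275001 to 121275000, with 13 domains and 3 in class 1. Class 1, explained below, held 35.1% of all domains, and counts as small as these were not tested. At the proximal end the fullest was on chromosome 19 from 3075001 to 13075000, with 22 domains. The emptiest held 13 domains each, that of chromosome 6 between 3000001 and 13000000 and that of chromosome 14 between 4425001 and 14425000. Chromosome 12 thus had the emptiest distal window and, with 21 domains, a proximal window that only chromosome 19 exceeded.

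No difference in domain length between the ends was called. The median length per chromosome averaged 395 ± 64.5 kb (SD, n = 19) proximally, 379 ± 59.1 kb distally and 406 ± 25.1 kb in the interior. Proximal minus distal was 15.8 kb (SE 21.7; permutation test, adjusted p = 0.781), and proximal minus interior -11.2 kb (SE 17.0; permutation test, adjusted p = 0.781). Distal minus interior was -27.0 kb (SE 15.2; permutation test, adjusted p = 0.304), and the distal median was the shorter on 12 of 19 chromosomes.

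The comparison of lengths with the interior turned on how the interior was summarised. With means in place of medians, distal minus interior was -84.0 kb (permutation test, adjusted p = 0.0381). Averaged over interior windows that begin at a domain start, the differences were -93.4 kb distally (permutation test, adjusted p = 0.00198) and -77.6 kb proximally (permutation test, adjusted p = 0.0302). Domains over 1000 kb made up 5.34% of distal domains (19 of 356, 95% Wilson interval 3.44 to 8.18%), 9.01% of proximal (29 of 322, 6.34 to 12.6%) and 9.05% of interior domains (312 of 3446, 8.14 to 10.1%). These intervals treat domains as independent, although neighbours share a window and chromosomes are the units of the tests. The membership rule itself shortens the ends, since domains that cross the limit count as interior. Of the domains that cross it, 7 at the proximal and 5 at the distal limit were over 1000 kb. Domains of up to 250 kb made up 23.0% distally, 20.5% proximally and 17.8% in the interior.

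The longest proximal domain lay on chromosome 6 from 9225001 to 11800000, at 2575 kb, with direction FALSE and class 0. Chromosome 2 held the second, from 6375001 to 8575000 (2200 kb, class 0). The third, at 2175 kb, was a class 1 domain of chromosome 14 between 10200001 and 12375000, with a probability of 1.00. The longest distal domain lay on chromosome 17 from 91000001 to 93525000, at 2525 kb, in class 1 with a probability of 0.57. A domain of 2500 kb on chromosome 10 from 122650001 to 125150000 was class 1 with a probability of 0.99. The third, of 1900 kb on chromosome 12 from 115350001 to 117250000, was class 0 with a cosine of 0.212. The shortest proximal domain, of 50 kb, lay on chromosome 9 from 6825001 to 6875000, and no distal domain was shorter than 100 kb.

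**Figure D3:**
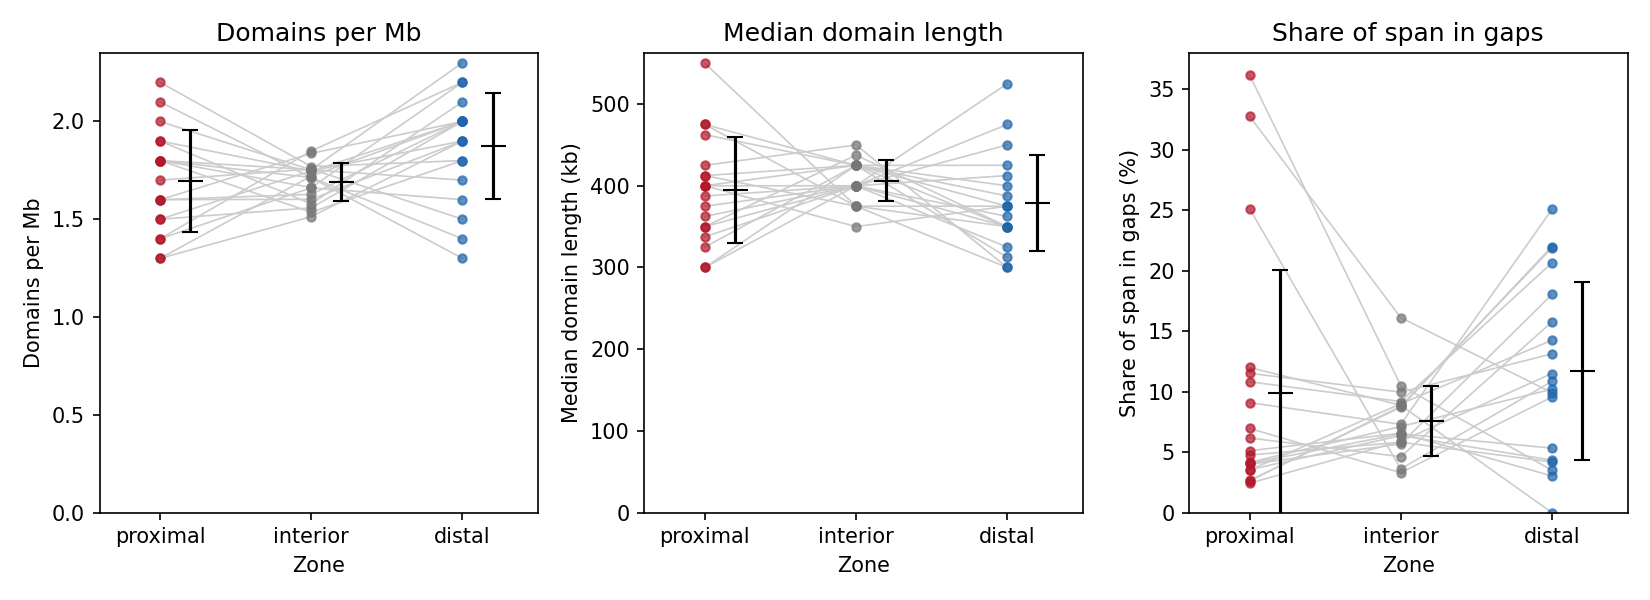
Domains per Mb, median domain length (kb) and share of the span lying in gaps (%) for the proximal, interior and distal zones of 19 chromosomes. Coloured points are chromosomes, and grey lines join the zones of a chromosome. Black bars give the mean and SD (the proximal gap bar is cut off at 0). The interior points lie closest together, but each summarises 71 to 279 domains, against 13 to 23 for a point of an end. The distal means are 1.87 per Mb, 379 kb and 11.7%.

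Neighbouring domains were parted by a gap in about the same share of pairs in all zones. The share of neighbouring pairs with a gap averaged 25.9 ± 9.16% (SD, n = 19) proximally, 26.1 ± 14.8% distally and 24.3 ± 5.03% in the interior. None of the 3 contrasts was called (permutation tests, adjusted p between 0.781 and 0.975). The distal share ran from 0% on chromosome 17, where all 14 distal domains touched, to 61.1% on chromosome 8. In zones of 5 Mb the proximal share exceeded the distal by 12.1 percentage points, which was not called (permutation test, adjusted p = 0.265).

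Gaps took more of the distal span than of the interior, again without a call. They filled 11.7 ± 7.36% (SD, n = 19) of the distal span, 9.87 ± 10.2% of the proximal and 7.57 ± 2.91% of the interior. Distal minus interior was 4.17 percentage points (SE 1.79; permutation test, p = 0.0334, adjusted p = 0.157, higher on 12 of 19 chromosomes). Against interior windows that begin at a domain start it was 5.29 and passed (permutation test, adjusted p = 0.0411). The median gap was 175 kb among 90 distal gaps, 125 kb among 78 proximal gaps and 125 kb among 843 interior gaps.

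The 3 chromosomes with the highest proximal share held the longest proximal gaps. The longest, of 2025 kb, lay on chromosome 7 from 7550001 to 9575000, and gaps filled 32.8% of that proximal span. Chromosome 14 had gaps of 1450 kb from 4525001 to 5975000 and of 1425 kb from 6150001 to 7575000, and 36.2% of its proximal span lay in gaps. On chromosome 19 a gap of 1025 kb ran from 5025001 to 6050000. At the distal end the longest, also of 2025 kb, lay on chromosome 2 from 175025001 to 177050000, and the next, of 825 kb, on chromosome 12 from 112125001 to 112950000. Gaps over 500 kb numbered 8 of 78 proximally, 8 of 90 distally and 36 of 843 in the interior. These gaps were picked after their lengths had been seen.

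The share of stripe calls at either end was near that of the whole table. Class 1 domains are those to which a random forest gave a probability of at least 0.5. They are taken here as stripe domains, although the table does not name its classes. Over all domains 35.1% were class 1. Class 1 held 117 of 322 proximal domains (36.3%, 95% Wilson interval 31.3 to 41.7%), 119 of 356 distal domains (33.4%, 28.7 to 38.5%) and 1212 of 3446 interior domains (35.2%, 33.6 to 36.8%). The intervals again treat domains as independent. By chromosome the mean share was 35.7 ± 12.2% (SD, n = 19) proximally and 33.7 ± 8.18% distally. Proximal minus distal was 2.03 percentage points (SE 3.28; permutation test, adjusted p = 0.781), and the proximal share was the higher on 10 of 19 chromosomes.

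Stripe calls in single proximal windows rest on few domains, 13 to 22 per window, and their shares ran over a broad range. Whether the shares spread more than such small counts would by themselves was not tested. On chromosome 7, 11 of 19 proximal domains were class 1 (57.9%), whereas on chromosome 3 it was 2 of 14 (14.3%). Distally it was 4 of 21 on chromosome 15, the lowest share, and 7 of 14 on chromosome 17, the highest. In the outermost 2 Mb of the proximal end 37 of 79 domains were class 1 (46.8%), against 18 of 58 (31.0%) in the next 2 Mb. A share as high returned between 10 and 12 Mb (34 of 67, 50.7%), just outside the limit.

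The random forest probability was lowest in distal domains, but not by enough to be called. The chromosome medians averaged 0.371 ± 0.133 (SD, n = 19) proximally, 0.269 ± 0.119 distally and 0.340 ± 0.0328 in the interior. Distal minus interior was -0.0713 (SE 0.0247; permutation test, p = 0.0109, adjusted p = 0.0903, lower on 11 of 19 chromosomes). Proximal minus distal was 0.103 (SE 0.0427; permutation test, p = 0.0262, adjusted p = 0.144, higher on 12 of 19). Probability fell with a rising cosine score among domains of every zone. The Spearman rank correlation was -0.363 over 322 proximal, -0.639 over 356 distal and -0.487 over 3444 interior domains, read as a description only. No source used here says whether the forest used the cosine score.

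The imbalance score, a value per domain whose computation no source used here gives, was not called in any contrast. Its chromosome medians averaged 0.315 ± 0.114 (SD, n = 19) proximally, 0.292 ± 0.0984 distally and 0.320 ± 0.0279 in the interior. Proximal minus distal was 0.0239 (SE 0.0388; permutation test, adjusted p = 0.781), and neither end was called against the interior (permutation tests, adjusted p = 0.975 and 0.543). The proximal medians ran from 0.149 on chromosome 5 to 0.599 on chromosome 7, and the distal medians from 0.114 on chromosome 15 to 0.451 on chromosome 4. Chromosome 7 therefore had, among the proximal zones, the highest imbalance, the highest class 1 share and the lowest cosine.

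Of the 3 distal members with the highest imbalance, 2 were 100 kb long. The highest distal imbalance, 2.98, belonged to a domain of 100 kb on chromosome 2 from 177250001 to 177350000, with a probability of 1.00 and a cosine of 0. It lies 200 kb past the longest distal gap, and the domain between them, of 150 kb from 177050001 to 177200000, also had a cosine of 0. A TRUE domain of 425 kb on chromosome 10 between 122225001 and 122650000 came next, with an imbalance of 2.25. The third had 1.98 and direction FALSE, and spans 100 kb of chromosome 5 between 144500001 and 144600000. The chromosome 10 domain directly adjoins the domain of 2500 kb named above.

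Proximally the highest imbalance was 1.90, in a domain of 375 kb on chromosome 19 from 6925001 to 7300000, with direction FALSE and a probability of 1.00. Chromosome 18 held the second, a TRUE domain between 11450001 and 11675000 with an imbalance of 1.58 and a probability of 0.92. The third, with an imbalance of 1.46 and a probability of 1.00, was a TRUE domain of chromosome 7 between 4475001 and 5100000. A domain on chromosome 11 from 4000001 to 4375000 had an imbalance of 1.45 and a probability of 1.00. At the other extreme, a domain of 100 kb on chromosome 14 from 7575001 to 7675000 had an imbalance of 0 and a cosine of 1, and it begins where the gap of 1425 kb ends.

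The first domains were mostly of direction TRUE, and the last domains were divided almost evenly. A direction of TRUE or FALSE is given to every domain, and no source used here says which side TRUE names. Over all domains 49.2% were TRUE. The first domain of a chromosome was TRUE on 15 of 19 chromosomes and the second on 14, whereas the third was TRUE on 8. The last domain was TRUE on 9 of 19 chromosomes. Of the 7 first domains in class 1, 6 were TRUE, and of the 8 last domains in class 1, 7 were FALSE. Together these were 13 of 15 terminal class 1 domains, a pairing of labels made after they had been seen. Most of the 12 first domains in class 0 were TRUE as well, and so were most of the 11 last domains in class 0.

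**Figure D4:**
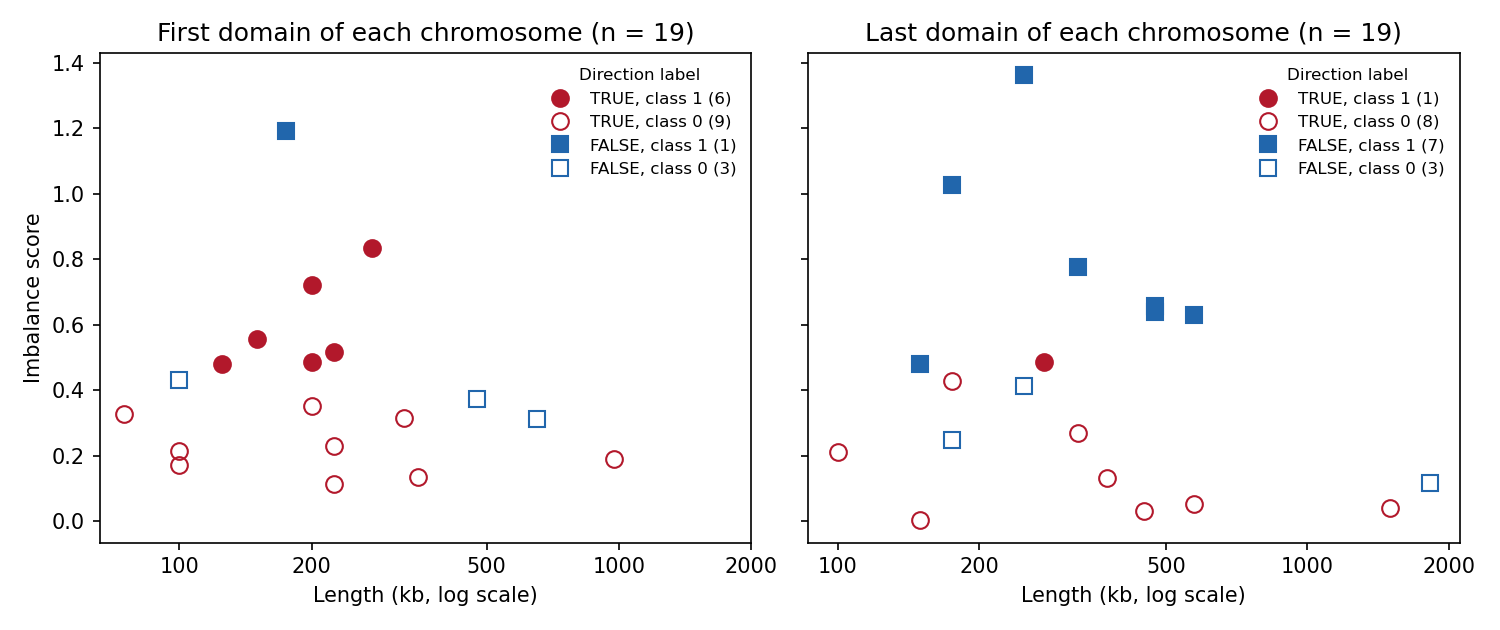
Length (kb, log scale, x axis) and imbalance score (y axis) of the first (left) and last (right) domain of each of 19 chromosomes, coloured by direction label, with circles for TRUE and squares for FALSE, filled for class 1. Filled points are TRUE in 6 of 7 first domains and FALSE in 7 of 8 last domains, and open points are mostly TRUE in both panels.

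The outermost 2 Mb, which hold these terminal domains too, were counted in the same way. There, 26 of 37 proximal class 1 domains were TRUE (70.3%), and 8 of 28 distal class 1 domains (28.6%). Among class 0 domains it was 25 of 42 proximally (59.5%) and 21 of 42 distally. Without the first and last domains the class 1 counts were 20 of 30 TRUE proximally and 7 of 20 distally (35.0%). The class 0 counts were then 16 of 30 TRUE proximally and 13 of 31 distally (41.9%), so the distal shares of the classes lay closer together. Over the zone of 10 Mb the share of TRUE averaged 50.2 ± 10.8% (SD, n = 19) proximally and 49.9 ± 13.9% distally. That difference was 0.310 percentage points (SE 4.37; permutation test, adjusted p = 0.975). The counts in outermost domains were looked at after the data had been seen and are given without a test.

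The first domains were also short. Their lengths ran from 75 kb on chromosome 15 (3000001 to 3075000) over a median of 200 kb to 975 kb on chromosome 1 (3000001 to 3975000), and 13 of 19 were shorter than 250 kb. On 12 chromosomes they begin at 3 Mb, and no domain of the table begins earlier. In this build the stretch before that position is unsequenced, so the outer edge of these domains cannot be told apart from the start of the sequence. The last domains ran from 100 kb on chromosome 7 (152425001 to 152525000) over a median of 325 kb to 1825 kb on chromosome 3 (157775001 to 159600000), and 6 of 19 were shorter than 250 kb. The median cosine was 0.422 in first and 0.590 in last domains. The difference in cosine between the ends was nearly as large without first and last domains, at -0.120 (permutation test, adjusted p = 0.0310).

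Some terminal domains, picked here after their scores had been seen, had extreme values. The first domain of chromosome 7 (3000001 to 3175000, FALSE) had an imbalance of 1.19 and a probability of 0.99, and that of chromosome 13 (3000001 to 3275000, TRUE) had 0.835 and 1.00. The last domain of chromosome 1 (196950001 to 197200000, FALSE) had the highest imbalance of any terminal domain, 1.36, with a probability of 0.99. The last domain of chromosome 13 (120150001 to 120300000) had an imbalance of 0.00213, the lowest. The first domain of chromosome 4 (3050001 to 3200000) was class 1 with a cosine of 0.

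Tuned edges, a second pair of edges on a grid of 10 kb, lay inside the deposited edges at both ends. The tuned start lay on average 26.4 ± 8.37 kb (SD, n = 19) inside in proximal zones, 30.8 ± 4.63 kb in distal and 29.5 ± 2.11 kb in interior zones. Proximal minus distal was -4.40 kb (SE 2.15; permutation test, p = 0.0568, adjusted p = 0.234), lower on 14 of 19 chromosomes. The smallest proximal start shifts were 12.9 kb on chromosome 9, 14.3 kb on chromosome 3 and 14.3 kb on chromosome 12. The tuned end lay 29.0 ± 7.47 kb inside proximally and 29.0 ± 5.26 kb distally, a difference of 0.0568 kb (SE 2.00; permutation test, adjusted p = 0.977). The tuned start lay outside the deposited start in 36 of 322 proximal domains (11.2%) and in 29 of 356 distal domains (8.15%).

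Start and end shifts were also set against direction, as a description over domains. In distal domains the mean start shift was 26.5 kb for TRUE and 35.0 kb for FALSE (178 domains each). In proximal domains it was 26.2 kb for TRUE (163 domains) and 27.5 kb for FALSE (159 domains), and in the interior 26.3 and 32.5 kb. The end shift was larger for TRUE in all zones, at 32.2 against 26.0 kb proximally, 31.8 against 26.3 kb distally and 34.0 against 26.4 kb in the interior. The difference between zones was not tested.

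**Figure D5:**
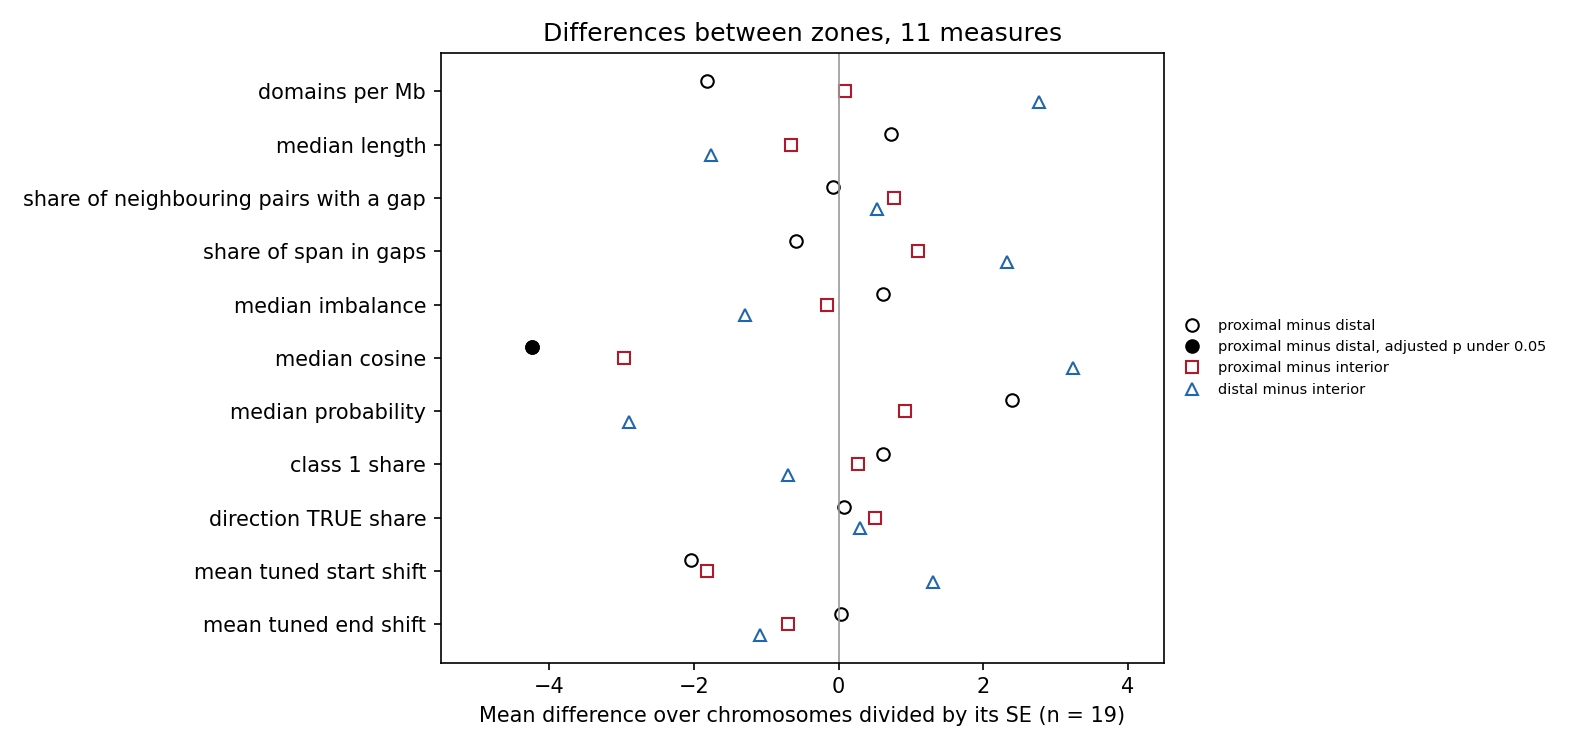
Mean difference over 19 chromosomes divided by its SE (x axis) for 11 measures (y axis) in 3 contrasts, proximal minus distal (circles), proximal minus interior (squares) and distal minus interior (triangles). The only filled symbol, an adjusted p under 0.05, is the cosine score of proximal minus distal domains.

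The domains nearest the limit of 10 Mb show how members were divided, and both named as outside extend across it. The proximal member nearest inside it lay on chromosome 15 from 12750001 to 13000000 (250 kb, class 0, cosine 0.123), and the domain nearest outside on chromosome 16 from 13100001 to 13425000 (325 kb, class 0, cosine 0.770). The distal member nearest inside lay on chromosome 4 from 145650001 to 145775000 (125 kb, class 0, cosine 0.509), and the domain nearest outside on chromosome 9 from 114050001 to 114200000 (150 kb, class 0, cosine 0.383).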

How the data were processed

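Juicer, BWA and build mm9 are named, per the submitters' processing notes, without versions. The deposited table's name gives TopDom with a quantile threshold of 0.98 and a random forest threshold of 0.5. The deposited probability is a fraction, and the deposited imbalance and cosine are scores whose computation is not given. How the 3 libraries were pooled is not given either. Coordinates are those of mm9 with starts counted from 1. No genome or gene table of mm9 was used, so sequences and genes of the domains are not given.

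Members were found by position. Each zone of a chromosome, with at least 3 domains, gave a median, mean or share. Domains per Mb used 10 Mb at the ends and the covered span in the interior. In the interior, 2 domains lack a finite imbalance, a cosine and a probability. Paired permutation tests flipped the sign of chromosome differences (100000 resamples; scipy 1.17.1, Python 3.11.15). The test was first tried on tables with cosine scores shuffled within chromosomes, for proximal minus distal only. Shuffling removes any likeness of neighbouring domains, and the other measures were not tried. Members, measures and lists were chosen with earlier results of these data known. The rule for named regions took the longest and shortest member, first and last domain, the members of highest imbalance and probability, the fullest and emptiest windows and the domains nearest the limit. Other named domains, long gaps, parts of chromosomes and outermost directions were picked after their values were seen. Alternatives changed zone size, membership, summaries and chromosomes used.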

Additional observations from a re-analysis of the deposited data

How the results depend on the processing

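No paired analysis was possible because all libraries form 1 group in 1 pooled table. This concerns the pairing of libraries only, since zones were paired by chromosome throughout. Of 233 alternatives that changed a setting, 184 kept the direction and the side of the threshold, and of 627 that left out 1 chromosome, 578 did. Only 1 of the 33 comparisons was called at the main setting, so most of these were uncalled differences that stayed uncalled. The called comparison kept its call in 7 of 10 changed settings and in 16 of 19 runs without a chromosome. All p-values are from permutation tests, and the cause of the changes was not tested. Alternatives chosen after seeing the data were the own spans, the interior windows from a domain start, single classes, extreme cosine scores and domains without gaps. For proximal minus distal cosine the call was lost with 5 Mb zones (-0.0938), class 1 domains only (-0.0962) and domains beside no gap (-0.0999); leaving out chromosomes gave -0.138 to -0.110, and the call was lost without chromosome 4, 5 or 19.

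Distal minus interior gained a call in several settings. For domains per Mb these were midpoints (0.227), fixed interior windows (0.277), own spans (0.259) and windows from a domain start (0.255). For cosine they were 20 Mb zones (0.0466), midpoints (0.0590), fixed windows (0.0820), windows from a domain start (0.0806) and means (0.0589), and leaving out chromosomes gave 0.0501 to 0.0681, called without chromosome 18. For length they were fixed windows (-61.4 kb), windows from a domain start (-93.4 kb) and means (-84.0 kb). With windows from a domain start, gap span (5.29 percentage points) and probability (-0.0775) were called too. Proximal minus interior gained a call for cosine with 20 Mb zones (-0.0818) and for length with windows from a domain start (-77.6 kb).

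The sign changed in comparisons that were not called under the setting in question, some of which other settings called with the opposite sign (length against the interior, and distal minus interior probability). With 5 Mb zones, proximal minus distal became -71.1 kb in length, 12.1 points in gap pairs, 2.64 points in gap span, -0.00159 in imbalance and -1.14 points in class 1. With the same zones, distal minus interior became 42.8 kb in length, -1.88 points in gap pairs, 0.00913 in imbalance, 0.0429 in probability, 5.95 points in class 1 and -0.359 points in direction, and proximal minus interior 0.00755 in imbalance. With 20 Mb zones, proximal minus distal became 1.60 points in gap pairs and -0.00542 in imbalance. Proximal minus interior became -0.0472 per Mb, 6.58 kb and 0.0128 in imbalance, and distal minus interior 0.0182 in imbalance, 0.634 points in class 1 and -1.69 points in direction. By midpoints, proximal minus interior imbalance was 0.000259 and distal minus interior direction -0.560 points. Without terminal domains, proximal minus interior became -0.0503 per Mb, 4.61 kb, -0.663 points in gap pairs and -0.473 points in direction, and proximal minus distal -1.74 points in direction. Means gave -0.0180 for proximal minus distal imbalance. Domains of 250 to 500 kb gave 0.0222 for proximal minus interior imbalance and -2.72 kb for the proximal minus distal tuned end.

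Leaving out chromosomes also turned the sign of small differences. Proximal minus interior ran from -0.0182 to 0.0307 per Mb, from -0.0219 to 0.00428 in imbalance and from -0.553 to 2.19 points in class 1. Proximal minus distal ran from -2.27 to 1.97 points in gap pairs, from -1.61 to 2.24 points in direction and from -1.04 to 0.928 kb at the tuned end. Distal minus interior ran from -0.113 to 3.85 points in gap pairs and from -0.682 to 2.39 points in direction.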
